A study of Equus caballus with 9 samples.

Results

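The genes described here are those of the HOXA, HOXB, HOXC and HOXD clusters. They were taken by symbol from the platform annotation, as the rows that name 1 of 38 HOX genes alone. A row was found for 31 of the 38 genes, among 30559 probe sets in all, and each of the 31 had a single probe set, so no choice between rows was needed. They comprised 7 HOXA, 8 HOXB, 8 HOXC and 8 HOXD genes. HOXA3, HOXA4, HOXA13, HOXB4, HOXB8, HOXC8 and HOXD4 had no row naming them alone and are not analysed here.

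HOX genes encode homeodomain transcription factors that stand in clusters, and their order along the DNA follows the order in which they are used along the head-to-tail axis of the embryo. Genes at the same place in different clusters form a paralog group and are numbered alike, so that low numbers belong to the hindbrain and neck, middle numbers to the trunk and high numbers to the lumbosacral region, the limbs and the tail. Cultured fibroblasts and mesenchymal stromal cells keep a HOX pattern that reflects the body site they came from, and this pattern is often used as a record of origin. Measured members fell into paralog groups 1 to 4 (7 genes), 5 to 8 (9 genes) and 9 to 13 (15 genes).

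Gene expression had been measured on Affymetrix arrays in 9 samples of plastic-adherent equine cells, 3 per group, each with 100 ng of total RNA taken after 96 h of culture in medium with 15% fetal bovine serum. Bone marrow cells (BM-MSC) came from 3 numbered horses without treatment, and adipose cells (AD-MSC) came from tailhead fat, also untreated, with no horse named for a sample. Blood-derived cells (EA-ADSC) were grown from mononuclear cells of 3 other horses, bled 2 h after electroacupuncture, in which current passes between acupuncture needles. All 3 groups are labelled as mesenchymal cells, no sort of the cells and no age, sex or breed is given, and no cells from blood of untreated horses were analysed here, so that the contrast of blood-derived with bone marrow cells changes tissue, treatment and horse at once. The contrast of blood-derived with adipose cells likewise changes tissue and treatment, and whether the horses differ is not given. The labels say nothing on when the adipose arrays were run. A difference in run could thus not be told apart from cell type in either comparison with adipose cells.

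Values below are log2 intensities, in the order of replicates 1, 2 and 3, or the mean ± SD of n = 3 arrays, and differences between groups are log2 differences with 95% intervals. The whole table had a median of 4.62, and single arrays had medians of 4.56 to 4.66. Of the 31 HOX genes 6 were above that median in all 9 arrays, 10 were below it in all 9 and 15 crossed it. How far dim rows lie above background could not be judged, and levels of different genes were not compared. In bulk samples, fewer cells of a type and less RNA per cell cannot be told apart. Exactly equal values in different arrays occurred in 15 of the 31 HOX rows (48.4%) and in 37.3% of all rows, which can make the SD of a group very small. The labelled identity was checked with 15 mesenchymal markers, which in each group all had means above the table median (for example VIM, vimentin, was at 12.63 ± 0.06, 12.56 ± 0.13 and 12.53 ± 0.05 in bone marrow, blood-derived and adipose cells). Unlike VIM, many of the 15 were not level across the groups, and their differences are given with the other cell type markers below. PTPRC, the pan-leukocyte phosphatase CD45, lay below the table median in every array, but of the 11 pan-leukocyte markers measured only 4, 5 and 6 had group means below it in bone marrow, blood-derived and adipose cells.

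**Figure D1:**
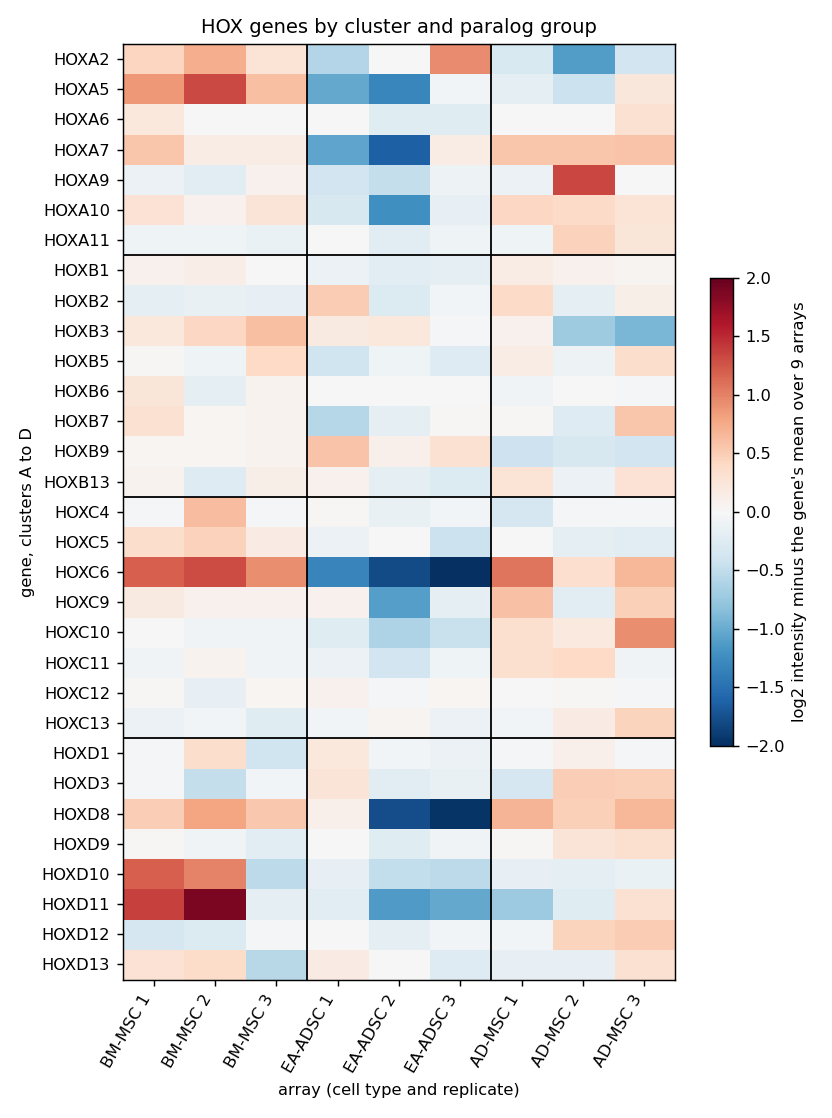
Heat map of the 31 HOX genes (rows, in paralog order within clusters A to D) in the 9 arrays (columns), coloured by log2 intensity minus the mean of that gene over the 9 arrays, with the colour scale ending at 2 log2 units on either side. HOXC6 is blue in the 3 blood-derived arrays, HOXD8 in 2 of them, and HOXD10 and HOXD11 are red in bone marrow replicates 1 and 2.

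The HOX difference that stood out between the groups was the low HOXC6 of the blood-derived cells. HOXC6 is a trunk gene, expressed at thoracic level in vertebrate embryos. It read 7.27, 7.39 and 7.01 in bone marrow cells, 4.76, 4.29 and 3.70 in blood-derived cells and 7.15, 6.42 and 6.74 in adipose cells. The blood-derived arrays lay below all 6 others, with no overlap, while bone marrow and adipose arrays overlapped. HOXC6 was 7.84-fold lower in blood-derived than in bone marrow cells (log2 difference -2.97, interval -3.62 to -2.32, adjusted p = 0.00336). It was 5.73-fold lower than in adipose cells (log2 difference -2.52, interval -3.17 to -1.87, adjusted p = 0.00193). Since the mean of the blood-derived cells was under the table median, both folds hold for the deposited values only, as do all later folds against a group mean under 4.62. Both calls were kept in all 18 alternative fits, with an adjusted p of at most 0.0269 against bone marrow and 0.0147 against adipose cells. Between adipose and bone marrow cells HOXC6 did not pass (log2 difference -0.45, interval -1.10 to 0.20).

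HOXA5, which patterns the neck-to-thorax transition of the skeleton and the lung in mice, read 5.86, 6.30 and 5.59 in bone marrow cells. Its blood-derived values were 3.97, 3.68 and 4.93, and its adipose values 4.80, 4.56 and 5.21. The bone marrow arrays lay above all 6 others, and blood-derived replicate 3 stood among the adipose arrays. By the moderated F test HOXA5 differed among the 3 groups (adjusted p = 0.039, from 0.0135 to 0.123 over the alternatives). Of the 9 fits that left out 1 array this call was kept in 1, the one without blood-derived replicate 3. No single pair passed with the values as deposited and all rows tested. Blood-derived minus bone marrow cells gave -1.72 (interval -2.50 to -0.95, adjusted p = 0.0647), which became -2.09 (adjusted p = 0.0299) without blood-derived replicate 3, with a range of 0.0283 to 0.209 over the alternatives. It also passed with all 9 arrays when dim rows were left out (0.0364), with array weights (0.0431), with 1 probe set per gene (0.0284) and with probe sets averaged by gene (0.0283). Adipose minus bone marrow cells gave -1.06 (interval -1.83 to -0.29, adjusted p = 0.116).

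HOXD8, a trunk-level gene at the middle of its cluster, differed between the 3 blood-derived arrays, which are 1 per horse. It read 6.88, 7.18 and 6.92 in bone marrow cells and 7.06, 6.87 and 7.05 in adipose cells, and these groups overlapped. In blood-derived cells it read 6.49, 4.61 and 4.42. All 3 values lay below the other 6 arrays, but replicate 1 was close to them while replicates 2 and 3 were under the table median. The log2 difference was -1.82 against bone marrow (interval -2.89 to -0.74, adjusted p = 0.147) and -1.82 against adipose cells (interval -2.89 to -0.74, adjusted p = 0.0568), neither past the threshold. Without blood-derived replicate 1 both passed, at -2.48 against bone marrow (adjusted p = 0.00129, with a range of 0.00129 to 0.367 over the alternatives) and -2.48 against adipose cells (adjusted p = 5.3e-04, with a range of 5.3e-04 to 0.16). With all arrays both also passed with array weights (0.0364 and 0.0385), and the difference against adipose cells passed with dim rows left out (0.0342), with 1 probe set per gene (0.0319) and with probe sets averaged by gene (0.0318).

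HOXA7, another trunk gene, was below the table median in all 9 arrays. It read 4.60, 4.20 and 4.20 in bone marrow cells, 2.99, 2.41 and 4.20 in blood-derived cells and 4.60, 4.61 and 4.61 in adipose cells. Replicate 3 of the blood-derived cells matched bone marrow, and the other 2 were lower than every array of the other groups. The difference of blood-derived minus adipose cells was -1.41 (interval -2.29 to -0.53, adjusted p = 0.0684) with all arrays and -1.91 (adjusted p = 0.00459, with a range of 0.00459 to 0.177 over the alternatives) without blood-derived replicate 3. It also passed with all arrays when 1 probe set per gene (0.0391) or probe sets averaged by gene (0.039) were tested. Against bone marrow it was -1.13 (adjusted p = 0.277) and became -1.63 (adjusted p = 0.0299, the lowest value over the alternatives) without the same replicate.

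HOXC5, the neighbour of HOXC6 in the cluster, read 4.85, 4.98 and 4.67 in bone marrow cells. It read 4.39, 4.51 and 4.08 in blood-derived cells and 4.51, 4.31 and 4.27 in adipose cells. The bone marrow arrays lay above the rest, and the other groups overlapped. No comparison passed (blood-derived minus bone marrow -0.50, interval -0.85 to -0.16, adjusted p = 0.209). The remaining members of paralog groups 5 to 8 were HOXA6, HOXB5, HOXB6 and HOXB7. Their 12 log2 differences over the 3 comparisons ran from -0.38 to 0.04, and none passed.

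**Figure D2:**
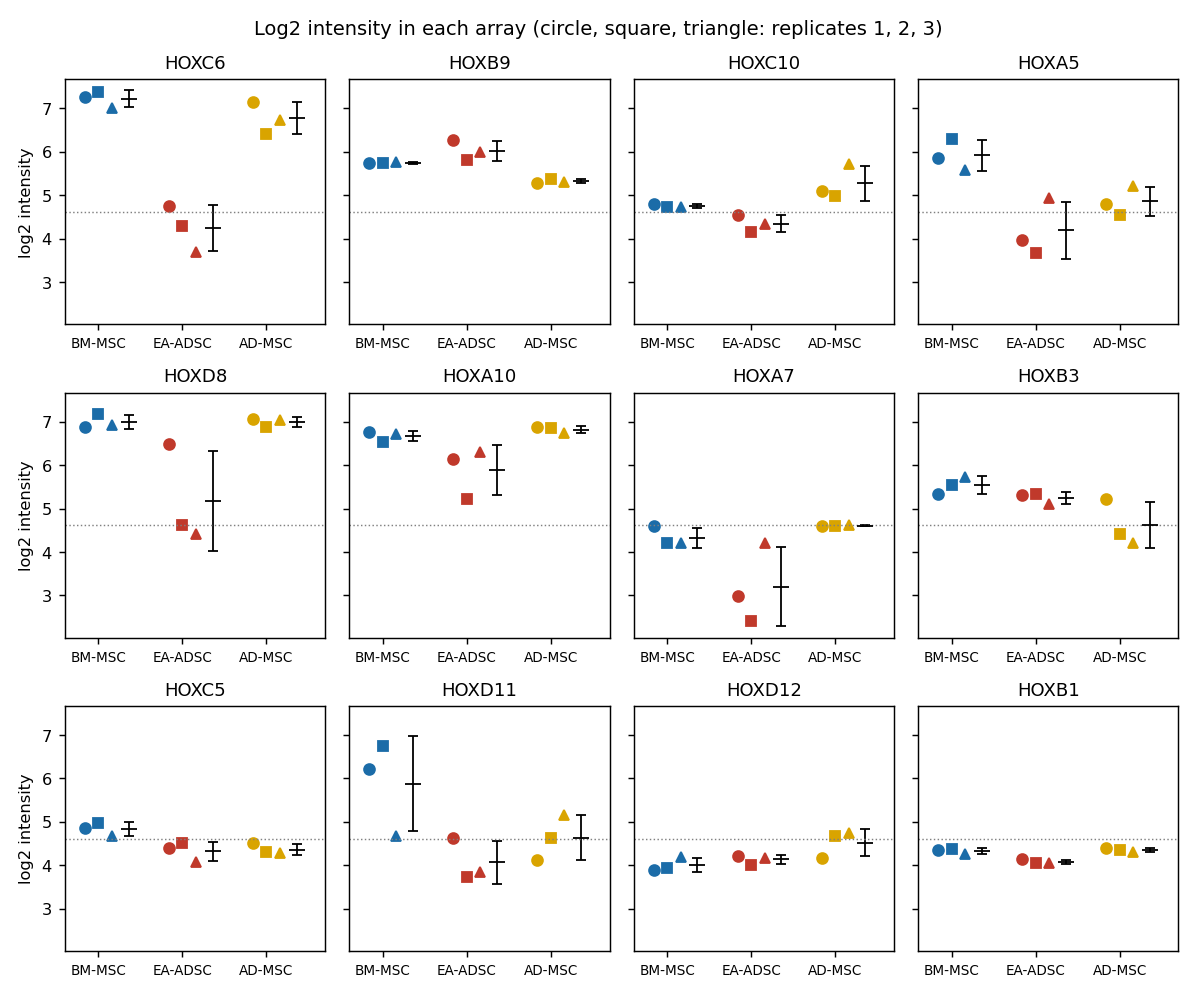
Log2 intensity (vertical axis) of 12 HOX genes in each array, by cell type (blue, bone marrow; red, blood-derived; yellow, adipose; circle, square and triangle for replicates 1, 2 and 3), with black bars for the mean ± SD of 3 arrays and a dotted line at the table median of 4.62. HOXC6 separates blood-derived cells from both other groups, whereas HOXD8, HOXA7 and HOXD11 each have 1 array that departs from the other 2 of its group.

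Among genes of paralog groups 9 to 13, HOXB9 and HOXC10 separated blood-derived from adipose cells in opposite directions. HOXB9, which acts in rib and limb patterning in mice, read 6.26, 5.80 and 6.01 in blood-derived cells and 5.28, 5.38 and 5.31 in adipose cells. Bone marrow cells stood between them at 5.73, 5.73 and 5.77, and no groups overlapped. HOXB9 was 1.63-fold higher in blood-derived than in adipose cells (log2 difference 0.70, interval 0.40 to 1.01, adjusted p = 0.0179). It lost this call without blood-derived replicate 3 (adjusted p = 0.055) or adipose replicate 3 (0.0548) and in a fit of these 2 groups alone (0.0721), the highest of a range that began at 0.00713. Against bone marrow cells the difference of 0.28 (interval -0.03 to 0.58) did not pass, nor did adipose minus bone marrow cells (-0.42, interval -0.73 to -0.12, adjusted p = 0.111).

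HOXC10, active at lumbar level in embryos and known to differ between human fat depots, read 5.11, 4.98 and 5.72 in adipose cells. It read 4.54, 4.17 and 4.34 in blood-derived cells and 4.80, 4.72 and 4.72 in bone marrow cells. The 3 groups did not overlap, with tailhead fat on top. HOXC10 was 1.89-fold lower in blood-derived than in adipose cells (log2 difference -0.92, interval -1.38 to -0.47, adjusted p = 0.0301). This call was lost without bone marrow replicate 1 (adjusted p = 0.0548), 2 (0.0551) or 3 (0.0511), without blood-derived replicate 2 (0.0961) or 3 (0.0837), and in a fit of these 2 groups alone (0.0971), the values over the alternatives beginning at 0.0141. The difference of adipose minus bone marrow cells was 0.52 (interval 0.07 to 0.98, adjusted p = 0.178).

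HOXA10, used in the lumbar spine, the thigh and the uterus and also in blood progenitors, read 6.75, 6.54 and 6.71 in bone marrow cells and 6.87, 6.85 and 6.74 in adipose cells. In blood-derived cells it read 6.14, 5.23 and 6.29. These 3 arrays lay below the other 6, replicate 2 by the widest margin. The log2 difference was -0.78 against bone marrow (interval -1.36 to -0.20, adjusted p = 0.252) and -0.93 against adipose cells (interval -1.51 to -0.35, adjusted p = 0.0673). The latter passed with dim rows left out (adjusted p = 0.04) and with 1 probe set per gene tested (0.0378), within a range of 0.0376 to 0.158.

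HOXD11, which shapes the forearm in mice, varied widely among the bone marrow arrays. It read 6.23, 6.75 and 4.67 there, 4.63, 3.73 and 3.84 in blood-derived cells and 4.13, 4.62 and 5.16 in adipose cells. Bone marrow replicates 1 and 2 were above every other array, and replicate 3 was level with the other groups. HOXD10, the next gene of the cluster and singled out here after its values were seen, read 6.01, 5.80 and 4.28 in bone marrow cells, 4.64, 4.32 and 4.28 in blood-derived cells and 4.64, 4.62 and 4.67 in adipose cells. The same 2 bone marrow arrays were high for HOXD10, and the third was level with the lowest blood-derived array. No comparison of HOXD10 or HOXD11 passed with all arrays. For blood-derived minus bone marrow cells HOXD11 had a log2 difference of -1.82 (interval -3.02 to -0.62, adjusted p = 0.192) and HOXD10 of -0.95 (interval -1.85 to -0.05, adjusted p = 0.398).

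Bone marrow replicate 3, which departed from replicates 1 and 2, decided these values. Leaving it out narrows the spread of the group, so the fits without it are no separate test of HOXD10 or HOXD11. Without it HOXD10 was lower in blood-derived than in bone marrow cells (log2 difference -1.49, adjusted p = 0.0126, with a range up to 0.743 over the alternatives). HOXD10 was then also lower in adipose than in bone marrow cells (-1.26, adjusted p = 0.00799, with a range up to 0.665). HOXD11 was then lower in adipose than in bone marrow cells (-1.85, adjusted p = 0.047, with a range up to 0.483), and its difference of blood-derived minus bone marrow cells was -2.43 (adjusted p = 0.0558). A spread over 3 arrays of more than 1.5 log2 units, as HOXD10 and HOXD11 had in bone marrow, was found in 3.04% of all rows there.

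HOXD12, a gene of the distal limb, read 3.89, 3.94 and 4.18 in bone marrow cells, 4.22, 4.02 and 4.17 in blood-derived cells and 4.17, 4.67 and 4.73 in adipose cells. Adipose replicate 1 fell within the values of the other groups and the other adipose arrays lay above them. The difference of adipose minus bone marrow cells was 0.52 (interval 0.12 to 0.91, adjusted p = 0.13), and without adipose replicate 1 it was 0.70 (adjusted p = 0.0305, with a range up to 0.303 over the alternatives). The other 9 genes of paralog groups 9 to 13 were HOXA9, HOXA11, HOXB13, HOXC9, HOXC11, HOXC12, HOXC13, HOXD9 and HOXD13. Their differences ran from -0.72 to 0.48 over the 3 comparisons and none passed. HOXA9, of posterior trunk and blood progenitors, was below the table median in all arrays, as were HOXB13 of the tail and prostate, HOXC12 and HOXD13. HOXC9, of the lower trunk, was below the other arrays only in blood-derived replicate 2, at 4.72 against 5.61 to 6.42 in the other 8.

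In paralog groups 1 to 4, where genes of the hindbrain and neck stand, none of the 7 members passed in any comparison. Of all probe sets 0.815% passed for blood-derived against bone marrow, 6.92% for blood-derived against adipose and 6.08% for adipose against bone marrow cells. HOXB3, a hindbrain and neck gene, read 5.34, 5.55 and 5.74 in bone marrow cells, 5.31, 5.35 and 5.10 in blood-derived cells and 5.22, 4.42 and 4.22 in adipose cells. Adipose replicates 2 and 3 were below all other arrays, and replicate 1 was near the blood-derived values. The difference of adipose minus bone marrow cells was -0.92 (interval -1.49 to -0.36, adjusted p = 0.0697), and without adipose replicate 1 it was -1.22 (adjusted p = 0.00782, with a range up to 0.196 over the alternatives). It also passed with dim rows left out (0.0412), with array weights (0.039) and with 1 probe set per gene tested (0.0383). Blood-derived minus adipose cells gave 0.63 (adjusted p = 0.188) and, without adipose replicate 1, 0.93 (adjusted p = 0.0199, with a range up to 0.411).

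HOXB1, which specifies a segment of the hindbrain, was below the table median in every array. It read 4.34, 4.38 and 4.26 in bone marrow cells, 4.14, 4.05 and 4.06 in blood-derived cells and 4.41, 4.35 and 4.31 in adipose cells. The blood-derived arrays lay under the rest by a small margin (-0.25 against bone marrow, adjusted p = 0.39, and -0.27 against adipose cells, adjusted p = 0.16). The other 5 members were HOXA2, HOXB2, HOXC4, HOXD1 and HOXD3. HOXA2, needed for the second pharyngeal arch, had a mean of 5.50 ± 0.23 in bone marrow cells, 5.14 ± 0.77 in blood-derived cells and 4.42 ± 0.45 in adipose cells, and adipose minus bone marrow cells gave -1.08 (interval -1.95 to -0.21, adjusted p = 0.148). Differences of the other 4 ran from -0.31 to 0.40 over the 3 comparisons, and HOXC4 and HOXD1 were below the table median in every array.

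**Figure D3:**
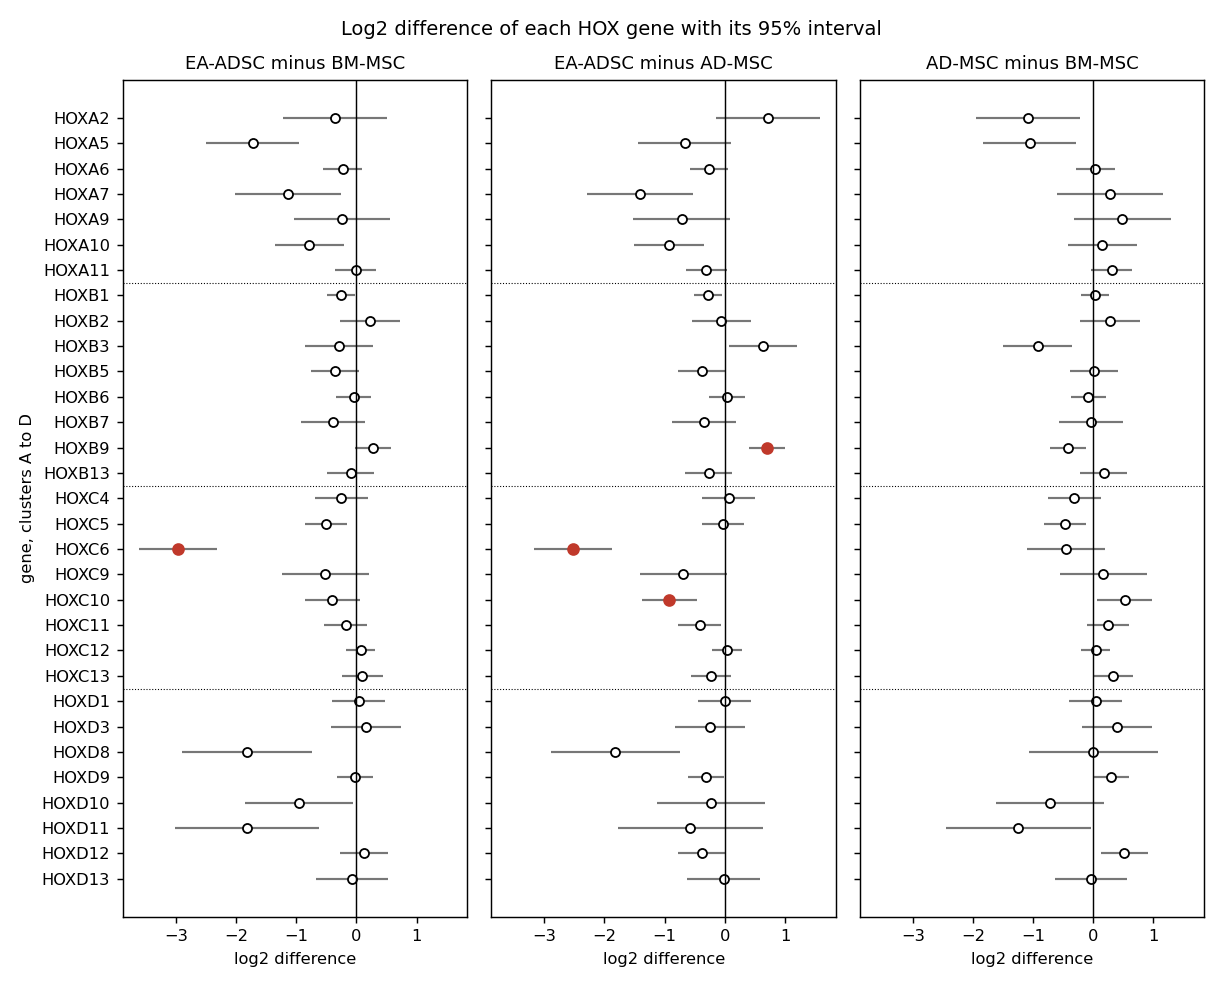
Log2 difference (horizontal axis) of each of the 31 HOX genes in the 3 comparisons, with lines for the 95% interval and filled red points for an adjusted p under 0.05. HOXC6 is filled in both comparisons of blood-derived cells, HOXB9 and HOXC10 against adipose cells, and no gene is filled for adipose minus bone marrow cells.

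Counted together, 1 of the 31 HOX genes (HOXC6, lower) passed for blood-derived against bone marrow cells, where 0.815% of all probe sets passed. Against adipose cells 3 passed, which is 9.68% beside 6.92% of all probe sets. Of these 1 was higher and 2 were lower, beside 3.49% and 3.43% of all probe sets. At an unadjusted p under 0.05 there were 9 genes against bone marrow (29.0%, beside 11.7% of all probe sets) and 10 against adipose cells (beside 21.2%). None passed for adipose against bone marrow cells by limma, where 6.08% of all probe sets did, and 8 of the 31 had an unadjusted p under 0.05 (25.8%, beside 21.1% of all probe sets). By the F test 3 differed among the groups (HOXC6, HOXB9 and HOXA5), beside 7.48% of all probe sets. HOXC6 kept this call in every alternative fit, whereas HOXB9 (adjusted p = 0.0348, up to 0.0984) kept it in 1 of the 9 fits that left out an array, the one without blood-derived replicate 2. The adjusted share against adipose cells was thus near that of the table. Both comparisons of blood-derived cells rest on the same 3 blood-derived arrays.

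Over all 31 HOX genes, the called ones included, differences below 0 were the more frequent in both comparisons of blood-derived cells. The median log2 difference of the 31 genes was -0.25 against bone marrow and -0.27 against adipose cells, where all probe sets had medians of 0.01 and -0.02. Of the 31 genes 24 had a difference below 0 against bone marrow and 25 against adipose cells. Of all 30559 probe sets 14765 and 16260 had one. Bone marrow and blood-derived arrays did not overlap in 10 genes that were lower in blood-derived cells (32.3%, beside 8.87% of all probe sets) and in 1 that was higher, HOXB9 (9.52% of all probe sets). Against adipose cells 8 genes were lower without overlap (25.8%, beside 12.7%) and again 1, HOXB9, was higher (10.8% of all probe sets). For adipose minus bone marrow cells the median was 0.04, equal to that of all probe sets to 2 decimals, with 4 genes higher and 5 lower without overlap, beside 14% and 11.6% of all probe sets.

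The mean over all 31 HOX genes was 4.15 to 4.45 in the blood-derived arrays and 4.64 to 4.84 in the other 6, without overlap. By paralog group, the means likewise did not overlap in the middle of the clusters. The mean log2 intensity of the 9 genes of groups 5 to 8 was 5.24, 5.19 and 5.09 in the bone marrow arrays, 4.28, 3.99 and 4.20 in the blood-derived arrays and 5.02, 4.81 and 5.11 in the adipose arrays. Each of these 9 genes had a difference below 0 against bone marrow, as had 14765 of all 30559 probe sets. Their median was -0.50, and 5 of them did not overlap, beside 8.87% of all probe sets. HOXC6, HOXD8, HOXA5 and HOXA7 had differences of -2.97 to -1.13, and HOXA6, HOXB5, HOXB6 and HOXB7 of -0.38 to -0.05. For the 7 genes of groups 1 to 4 the means were 4.36, 4.53 and 4.33 in bone marrow, 4.37, 4.20 and 4.35 in blood-derived and 4.24, 4.10 and 4.20 in adipose arrays, so that bone marrow and blood-derived cells overlapped. The 15 genes of groups 9 to 13 had means of 4.82, 4.79 and 4.54 in bone marrow, 4.59, 4.22 and 4.43 in blood-derived and 4.64, 4.79 and 4.86 in adipose arrays. In this posterior set blood-derived arrays lay under the adipose ones and overlapped with bone marrow replicate 3. The median difference of blood-derived minus bone marrow cells was -0.25 in groups 1 to 4 and -0.10 in groups 9 to 13, and against adipose cells it was 0.00, -0.38 and -0.31 in the 3 sets. Whether the difference varies between paralog groups was not tested.

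**Figure D4:**
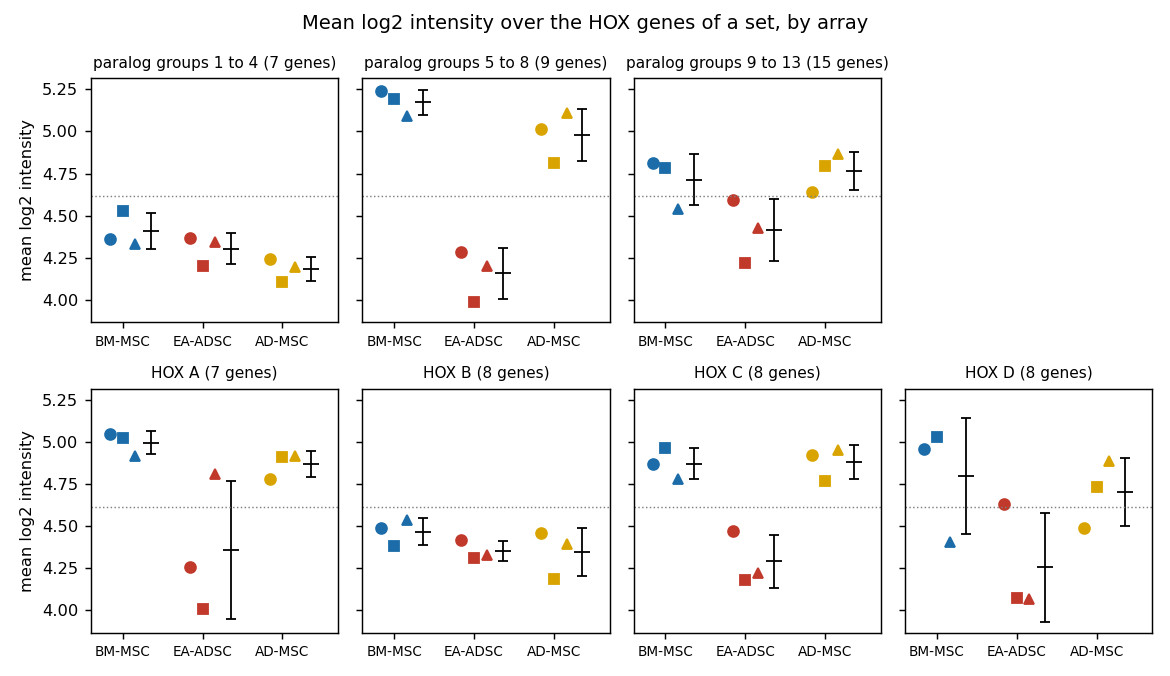
Mean log2 intensity (vertical axis) over the HOX genes of each paralog range (top) and each cluster (bottom) in every array, with symbols, bars and dotted line as in the plot of single genes. In paralog groups 5 to 8 the blood-derived arrays lie at 3.99 to 4.28 and all others at 4.81 or above, and HOXA and HOXD split the blood-derived arrays in different ways.

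By cluster, the blood-derived arrays did not behave as 1 unit. For the 8 HOXD genes their means were 4.63, 4.07 and 4.07, and replicate 1 held the highest value of the group in 8 of 8 genes, beside 36.4% of all probe sets. For the 7 HOXA genes the means were 4.26, 4.01 and 4.81, and here replicate 3 was highest in 5 of 7 genes, beside 28.6% of all probe sets, and replicate 2 lowest in 6 of 7, beside 32.3%. The blood-derived array with a HOXD mean near those of the other groups (replicate 1) was thus not the array with such a HOXA mean (replicate 3). With 1 array per horse, differences between horses, cultures and arrays cannot be told apart. HOXC means were 4.47, 4.18 and 4.22 in the blood-derived arrays and 4.77 to 4.96 in the other 6, without overlap. These means include HOXC6, with log2 differences of -2.97 against bone marrow and -2.52 against adipose cells. The median difference of the 8 HOXC genes was -0.32 in each of these comparisons, and means without HOXC6 were not taken. HOXB means ran from 4.31 to 4.42 in blood-derived cells, within the 4.19 to 4.54 of the others. Over the 31 genes, a spread above 1 log2 unit within a group occurred in 7 genes in blood-derived cells, 2 in bone marrow and 3 in adipose cells, where 11.4%, 8.51% and 15.3% of all probe sets had one. A spread above 1.5 occurred in 3 genes in blood-derived cells (HOXA2, HOXA7 and HOXD8, beside 3.98% of all probe sets) and in none in adipose cells (beside 5.92%).

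HOX proteins bind DNA with cofactors of the PBX, MEIS and PKNOX families, of which 7 of 9 listed genes were measured. MEIS3 was 4.15-fold higher in blood-derived than in adipose cells (6.79 ± 0.22 against 4.74 ± 0.35, adjusted p = 0.00127) and 2.96-fold lower in adipose than in bone marrow cells (6.30 ± 0.24, adjusted p = 0.00463). None of the 7 passed by limma between blood-derived and bone marrow cells, beside 0.815% of all probe sets. In this comparison 2 of the 7 had an unadjusted p under 0.05, beside 11.7% of all probe sets. The median log2 difference was -0.04 (0.01 over all probe sets). PBX3 came nearest there, at 6.06 ± 0.09 against 5.55 ± 0.11 (adjusted p = 0.0958).

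Positional regulators outside the HOX clusters gave calls in every comparison, in 38 measured genes of 50 listed. Between blood-derived and bone marrow cells 3 were higher and none lower, beside 0.35% and 0.465% of all probe sets, with a median log2 difference of 0.17 against 0.01 over all probe sets. SHOX2, a homeobox gene of the proximal limb, read 8.21, 7.59 and 8.63 in blood-derived, 5.09, 4.69 and 4.58 in bone marrow and 6.84, 7.09 and 6.69 in adipose cells. It was 10.2-fold higher in blood-derived than in bone marrow cells (adjusted p = 0.00135) and 4.24-fold higher in adipose than in bone marrow cells (adjusted p = 0.00343). EMX2, a homeobox gene of forebrain, shoulder blade and urogenital tract, was highest in adipose cells (7.07 ± 0.27), followed by blood-derived (6.13 ± 0.15) and bone marrow cells (4.36 ± 0.24). It was 3.40-fold higher in blood-derived than in bone marrow cells (adjusted p = 0.00475) and 6.51-fold higher in adipose than in bone marrow cells (adjusted p = 2.1e-04). These 4 calls of SHOX2 and EMX2 were kept in all 18 alternative fits.

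TBX3, a T-box gene of the limb and trunk wall, was at 6.72 ± 0.18 in blood-derived, 6.55 ± 0.19 in adipose and 5.53 ± 0.30 in bone marrow cells (adjusted p = 0.0301 for blood-derived and 0.0163 for adipose against bone marrow). The former call passed in 11 of 18 alternative fits. It was lost when bone marrow replicate 1 (0.121) or 3 (0.0814) was left out, and in each fit that left out a blood-derived array (0.0745, 0.11 and 0.066 for replicates 1 to 3). It was also lost with the replicate block (0.0531) and with the 2 groups alone (0.0597). The latter passed in 15, and was lost without bone marrow replicate 1 (0.0623) or 3 (0.0536) or adipose replicate 3 (0.0564). Against adipose cells 6 of the 38 genes were higher in blood-derived cells and 4 lower, beside 3.49% and 3.43% of all probe sets. SHOX2 (2.42-fold, adjusted p = 0.0254) was among the higher and EMX2 (1.92-fold, adjusted p = 0.0197) among the lower. DLX5, a homeobox gene of the skeleton and limb, was 13.7-fold higher in blood-derived (8.21 ± 0.65) than in adipose cells (4.44 ± 0.36, adjusted p = 0.00142). TBX5, which sets up the forelimb and heart, was 2.56-fold higher (5.27 ± 0.43 against 3.92 ± 0.31, adjusted p = 0.0142), a call lost in a fit of these 2 groups alone (0.0533).

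NKX3-2, an axial skeleton gene, was 2.14-fold lower in blood-derived than in adipose cells (3.35 ± 0.05 against 4.45 ± 0.20, adjusted p = 0.00334). MEOX2, a somite and limb gene, was 3.74-fold lower (3.68 ± 0.05 against 5.58 ± 0.73, adjusted p = 0.0157), and lost its call without blood-derived replicate 1 (0.0505), 2 (0.0516) or 3 (0.0506) or adipose replicate 3 (0.0552). Between adipose and bone marrow cells 5 of the 38 genes were higher and 1 lower, beside 2.83% and 3.25% of all probe sets, the lower being DLX5 (10.6-fold, adjusted p = 0.0025). The share of positional genes outside the clusters that passed in this comparison, where no HOX gene did, was not tested against that of the HOX genes.

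**Figure D5:**
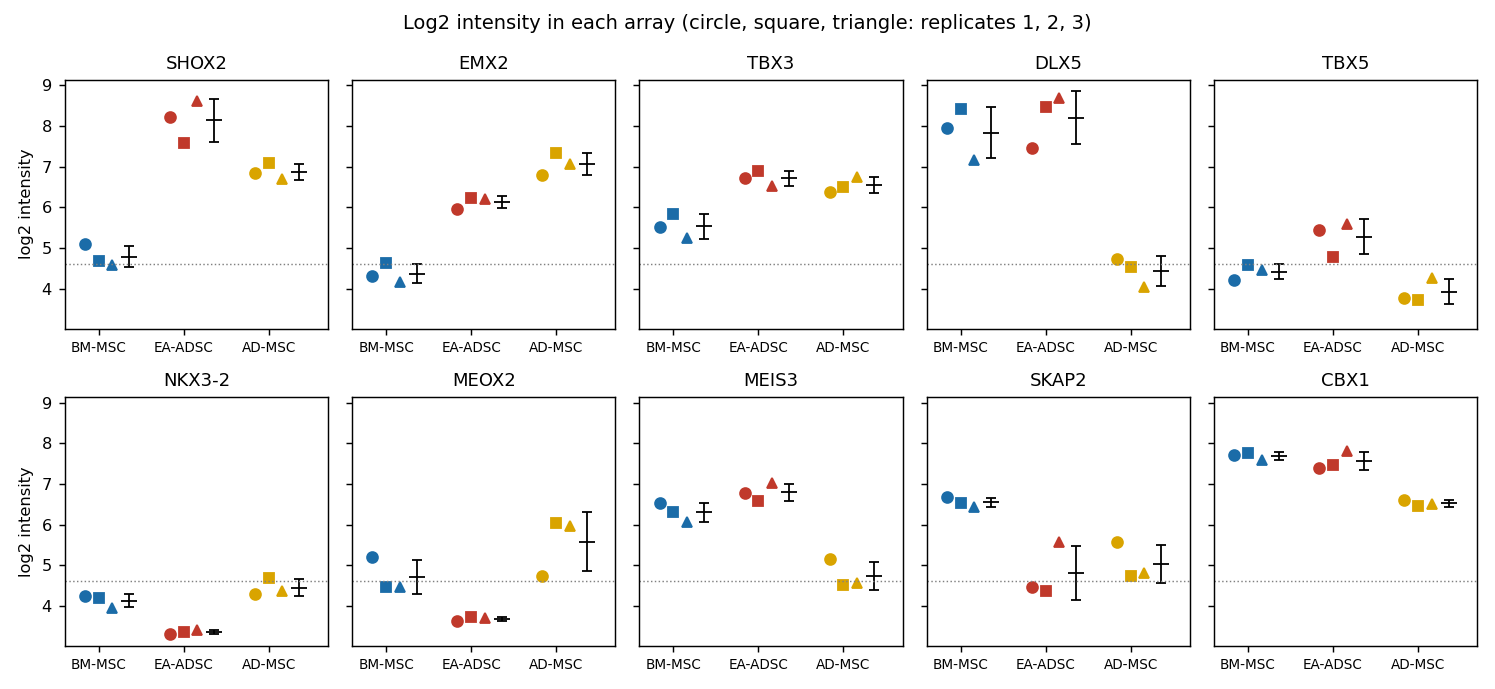
Log2 intensity (vertical axis) of 10 genes outside the HOX lists, 7 positional regulators, the cofactor MEIS3 and the cluster neighbours SKAP2 and CBX1, in each array, with symbols, bars and dotted line as in the plot of single HOX genes. SHOX2, EMX2 and TBX3 are lowest in bone marrow cells, DLX5 and MEIS3 are lowest in adipose cells, and SKAP2 is lower than bone marrow in every other array.

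Genes that flank the HOX clusters were read beside them, 22 of 24 listed. None passed between blood-derived and bone marrow cells, beside 0.815% of all probe sets. Against adipose cells 1 was higher and 1 lower in blood-derived cells, beside 3.49% and 3.43% of all probe sets. In adipose cells 2 were lower than in bone marrow cells, beside 3.25% of all probe sets. SKAP2, an adaptor protein gene next to the HOXA cluster, read 6.67, 6.53 and 6.43 in bone marrow, 4.47, 4.37 and 5.57 in blood-derived and 5.58, 4.73 and 4.81 in adipose cells. As with HOXA5 and HOXA7, blood-derived replicate 3 was above replicates 1 and 2. SKAP2 was 2.84-fold lower in adipose than in bone marrow cells (adjusted p = 0.0391), and at -1.74 (adjusted p = 0.0646) it did not pass for blood-derived minus bone marrow cells. The former call was lost without bone marrow replicate 1 (0.121), 2 (0.113) or 3 (0.0959), without adipose replicate 2 (0.0972) or 3 (0.116), and with the replicate block (0.0662).

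CBX1, a heterochromatin protein gene beside the HOXB cluster, was 2.06-fold higher in blood-derived (7.56 ± 0.22) than in adipose cells (6.52 ± 0.08, adjusted p = 0.00407) and 2.26-fold lower in adipose than in bone marrow cells (7.69 ± 0.09, adjusted p = 0.0026). ATP5MC2, a mitochondrial ATP synthase subunit gene, was 2.61-fold lower in blood-derived than in adipose cells (adjusted p = 0.0321), and passed in 10 of 18 alternative fits, with adjusted p up to 0.0961 (these 2 groups alone). It was lost with array weights (0.0531) and without any 1 of the 3 bone marrow arrays or the 3 adipose arrays, at 0.0526 (without bone marrow replicate 3) to 0.0856 (without adipose replicate 3). Of 16 listed non-coding RNAs of the clusters 5 microRNA rows were measured and none passed in any comparison. Of all probe sets 0.815% passed for blood-derived against bone marrow, 6.92% for blood-derived against adipose and 6.08% for adipose against bone marrow cells. MIR196B, of the HOXA cluster, was at 4.45 ± 0.01, 4.29 ± 0.04 and 5.01 ± 0.47 in bone marrow, blood-derived and adipose cells, and blood-derived minus adipose cells gave an adjusted p of 0.0848.

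Of 20 measured genes upstream of HOX expression (CDX factors, retinoid enzymes and receptors, GDF11) 1 passed, in both comparisons with adipose cells. Over all probe sets 6.92% passed between blood-derived and adipose cells and 6.08% between adipose and bone marrow cells. ALDH1A1, which makes retinoic acid, was 76.6-fold lower in blood-derived (3.78 ± 0.52) than in adipose cells (10.04 ± 1.27, adjusted p = 0.00207) and 45.1-fold higher in adipose than in bone marrow cells (4.55 ± 1.15, adjusted p = 0.00389). The blood-derived and bone marrow means lie under the table median, so both folds hold for the deposited values only. Products of polycomb and trithorax genes keep HOX genes silent or active. Of 34 such genes measured, 1 was lower in blood-derived than in bone marrow cells, beside 0.465% of all probe sets. This was RYBP (5.51 ± 0.17 against 6.50 ± 0.15, adjusted p = 0.0465). RYBP kept its call in 2 of the 9 fits without 1 array, those without adipose replicate 1 or 2. In the other 7 its adjusted p ran from 0.0768 (without blood-derived replicate 3) to 0.169 (without bone marrow replicate 2), and it was 0.0886 with the replicate block. Against adipose cells 1 of the 34 was lower in blood-derived cells and 1 higher, beside 3.43% and 3.49% of all probe sets. The lower was RNF2, the catalytic subunit of polycomb complex PRC1 (2.02-fold, adjusted p = 0.00841). The higher was MTF2, a subunit of PRC2 (1.73-fold, adjusted p = 0.0241). MTF2 lost this call without blood-derived replicate 1 (0.0545), 2 (0.0691) or 3 (0.0792) or adipose replicate 3 (0.0549), with the replicate block (0.0502) and with the 2 groups alone (0.0691). Both genes also passed between adipose and bone marrow cells, RNF2 higher and MTF2 lower in adipose cells, beside 2.83% and 3.25% of all probe sets. RNF2 kept that call in 15 of 18 alternative fits and MTF2 in 7.

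Markers of cell types moved with these comparisons. The mean log2 intensity over the 15 mesenchymal markers was 9.28 to 9.41 in bone marrow, 8.92 to 9.20 in blood-derived and 8.34 to 8.65 in adipose arrays. In adipose against bone marrow cells 1 of the 15 was higher and 7 lower (beside 2.83% and 3.25% of all probe sets), with a median log2 difference of -0.80. In blood-derived cells 7 were higher and 2 lower than in adipose cells (beside 3.49% and 3.43%). Against bone marrow cells 2 were higher and 1 lower (beside 0.35% and 0.465%). The summed linear intensity of 14 monocyte and macrophage markers was 1129.6 to 2321 in bone marrow, 697 to 931 in blood-derived and 1418 to 4103 in adipose arrays, and 5, 8 and 8 of the 14 had group means below the table median. The median log2 difference was -0.37 for blood-derived minus bone marrow cells and, against the direction of the sums, -0.24 for adipose minus bone marrow cells. FCER1G, an Fc receptor subunit, was lower in blood-derived than in bone marrow cells (3.93 ± 0.49 against 7.53 ± 1.09, adjusted p = 0.0206). It was the 1 of 14 called there, beside 0.465% of all probe sets called lower. Of the 14, 2 were lower in blood-derived than in adipose cells, beside 3.43% of all probe sets. In adipose cells 1 was lower than in bone marrow cells, beside 3.25% of all probe sets. For 11 pan-leukocyte markers the sums were 359 to 1575, 836 to 2673 and 858 to 1133. Of these markers 1 was higher in blood-derived than in bone marrow cells, ARHGDIB, beside 0.35% of all probe sets. The typical member went the other way, with a median log2 difference of -0.74. In either direction 5 of 11 had an unadjusted p under 0.05, beside 11.7% of all probe sets. For adipose minus bone marrow cells the median was nearly the same, at -0.80, with 2 markers lower, beside 3.25% of all probe sets. There 6 of 11 had an unadjusted p under 0.05, beside 21.1% of all probe sets. Blood-derived minus adipose cells had a median of -0.04, with 1 marker higher, beside 3.49% of all probe sets. The mean log2 intensity of the 11 was 4.80 to 5.79 in bone marrow, 4.91 to 5.06 in blood-derived and 4.76 to 4.88 in adipose arrays. For 10 pericyte and smooth muscle markers the sums were 14483.6 to 17148.5 in bone marrow, 16589.8 to 17658 in blood-derived and 533 to 2333 in adipose arrays. Of the 10, 5 were higher in blood-derived than in adipose cells, beside 3.49% of all probe sets. In adipose cells 4 were lower than in bone marrow cells, beside 3.25% of all probe sets. In blood-derived cells 1 was higher than in bone marrow cells, beside 0.35% of all probe sets. Among 9 adipocyte markers 3 were lower in blood-derived than in adipose cells, beside 3.43% of all probe sets. Of the 9, 1 was higher in adipose than in bone marrow cells, beside 2.83% of all probe sets. The sums over the 9 ran from 392.7 to 3002 in adipose arrays against 248 to 343 in the other 6. Of all probe sets 0.815% passed for blood-derived against bone marrow, 6.92% for blood-derived against adipose and 6.08% for adipose against bone marrow cells. None of 9 endothelial markers passed in any of these comparisons, with sums of 135 to 191. The part of these cell types in the HOX differences was not tested.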

How the data were processed

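The authors deposited 1 normalized log2 intensity per probe set and array. Transcriptome Analysis Console 3, Affymetrix Expression Console and Partek 6.16.0419 appear in the submitters' processing notes. The method of summarization, the normalization and the genome build were not given in the sources. The log2 values were used as deposited, without a filter. Genes were named from the platform annotation, in which 16789 probe sets have 1 gene, 343 have several and 13427 have none.

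With limma 3.58.1 (R 4.3.3), lmFit and eBayes fitted 1 mean per group to 30559 probe sets over the 9 arrays, leaving 6 residual degrees of freedom. Moderated tests of the 3 pairwise contrasts and a moderated F test used Benjamini-Hochberg adjustment over all probe sets and a threshold of 0.05. The procedure was tested on simulated data, in which 200 probe sets were changed in blood-derived cells. For blood-derived minus bone marrow cells 58% of changes of 1 log2 unit passed, and 80% of changes of 2 log2 units. Of the unchanged probe sets 9 were called in this comparison. A change of 1 log2 unit could thus be missed. With 3 arrays in each group, precision is limited by their number (median standard error of a log2 difference of blood-derived minus bone marrow cells 0.19 over all probe sets and 0.20 over the HOX genes).

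Members, lists and tests were chosen with earlier results of these data known. Array values are given for HOX genes past the threshold in any pair, filled to 12 genes by the F-test p. From each other list up to 4 called genes per comparison could be named, or up to 2 others given as values. SHOX2 and EMX2 were added to these for blood-derived against adipose cells, without alternative fits. No list was tested as a set. Bone marrow and blood samples are labelled as different horses, so replicate numbers do not pair them. The replicate block, a fit with the replicate number as a further term, thus has no basis in the labels for these 2 groups. It also leaves fewer residual degrees of freedom, so a call lost in it does not show an effect of pairing. Residuals of same-numbered arrays correlated at -0.02 to 0.12, and those of other arrays at -0.12 to 0.04. Bone marrow and blood replicates are separate horses per the labels, and for adipose samples, which name no horse, p-values measure the spread between samples.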

Additional observations from a re-analysis of the deposited data

How the results depend on the processing

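Each result was recomputed with the deposited values quantile-normalized again or median-centred, without dim rows (not above the table median in at least 3 arrays), with limma-trend, array weights or the replicate block, with a gene's brightest probe set or their mean, at a 2-fold criterion, with the compared groups alone, and without each array in turn. The 3 medians of the HOX differences moved by less than the spread between replicates under each of them but the 2-fold criterion, which gives no median. Without dim rows 19 of the 31 HOX genes were left. The 3 arrays that keep a row can be those of 1 group, as with HOXC5, kept on its bone marrow arrays alone. The rule thus uses the values that are compared, and medians, counts and calls without dim rows are not like for like with the others. Over the 19 genes the median of blood-derived minus bone marrow cells was -0.38, beside -0.25 over the 31. That of adipose minus bone marrow cells was -2e-04, beside 0.04. The number of HOX genes passing for blood-derived against bone marrow cells was 1. It was 2 without dim rows, with the brightest probe set or with the mean, and 3 with array weights. Against adipose cells it was 3, and 4 with array weights, 5 without dim rows, 6 with either rule for probe sets, 1 with the groups alone and 1 at the 2-fold criterion. For adipose against bone marrow cells it was 0, and 1 without dim rows, with array weights or with either rule for probe sets. By the F test it was 3, and 5 under the same 4 settings, 4 with quantile normalization and 1 with the replicate block. The replicate block left the pairwise counts at 1, 3 and 0. Every HOX gene has 1 probe set, so both rules for probe sets change only how many rows are tested. Leaving out 1 array gave 1 to 3, 2 to 4, 0 to 2 and 1 to 3 genes in these 4 tests. The first count was 3 without blood-derived replicate 3, and 2 when either blood-derived replicate 1 or bone marrow replicate 3 was left out, and the third was 2 without bone marrow replicate 3 or adipose replicate 1. The F-test count was 1 without bone marrow replicate 1 or 2 or adipose replicate 3. For HOXD8, HOXA7, HOXD10, HOXD11 and HOXB3, calls were gained by leaving out the array that departed from its group. Such a call is no separate test of the gene. Differences near 0 changed sign without a call. HOXD8 of adipose minus bone marrow cells was 0.0511 with quantile normalization, 0.0083 with array weights and -0.0577 to 0.0922 without 1 array. HOXB1 of the same pair was -0.0078 to 0.0541 without 1 array. HOXC5 of blood-derived minus adipose cells was -0.124 to 0.0871 without 1 array. The sign of every other difference of the HOX genes given with an adjusted p and of the cofactor, regulator, chromatin and flanking genes named for a call was kept in all fits. This does not cover SHOX2 and EMX2 of blood-derived against adipose cells. Whether a dim HOX row lies above background cannot be judged from these files.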
